A study of Mus musculus with 10 samples.

Results

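The semaphorin family was examined in isolates of liver sinusoidal endothelial cells, abbreviated LSEC, of mice fed a CDAA diet or a control diet. Its 31 members were chosen by gene symbol: all measured semaphorins of classes 3 to 7 (20 genes), all 9 plexins and both neuropilins, each with 1 probe set, out of 24704 genes on the array. The family was picked for description because Sema3c and Sema3d were already known to stand out between the diets in these same arrays. The CDAA minus Std differences below are therefore a description. Their p-values are not printed and serve only for calls and counts at a threshold. A count of members past the threshold is no independent evidence about the family, and nor are the calls of Sema3c and Sema3d.

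The CDAA mice were female C57BL/6N animals, 10 weeks old at the start, that ate for 10 weeks a CDAA diet in which fat supplied 31% of calories and cholesterol made up 1%. The abbreviation is commonly used for feed that is deficient in choline with amino acids as its defined nitrogen source, which causes fatty liver with fibrosis. The Std mice were control siblings, also 10 weeks old at the start, that ate a control diet for the same time. One label field gives 10 days in place of 10 weeks; titles and the growth protocol give weeks, which are used here. Each array carried cells pooled from 3 mice, taken from the non-parenchymal fraction and bound to magnetic beads against CD146, and there were 5 pools per diet (CDAA 1 to CDAA 5, Std 1 to Std 5), called biological replicates in the labels. The design text of the series mentions an endothelial Gata4 deletion, whereas the labels of these 10 samples give no altered allele.

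Semaphorins are secreted or membrane-bound guidance proteins first known from growing axons. They signal through plexins, whose cytoplasmic part inactivates small Ras-type GTPases and so loosens integrin adhesion and the actin skeleton. Most secreted class 3 semaphorins cannot bind a plexin alone and use a neuropilin as the ligand-binding partner. Neuropilins also bind vascular endothelial growth factors, which ties the family to vessel growth and permeability. In the liver the sinusoidal endothelium is known for neuropilin-1, and members of the family are made by other liver cells too, among them macrophages, lymphocytes, stellate cells and epithelium.

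The values were log2 signals made with robust multi-array average, which gives every array the same distribution, with a median of 3.89. A difference of 1 on this scale is a 2-fold difference in signal. Signals near or below that median are not known to lie above background, so small differences there say little about transcript, and levels of different genes are not compared. The isolate was endothelial in both diets but not pure. The mean of 12 pan-endothelial markers lay between 9.82 and 10.89 in CDAA pools and between 11.13 and 11.30 in Std pools, and that of 12 LSEC markers between 10.97 and 11.94 in CDAA and between 12.34 and 12.45 in Std. Marker means of recruited macrophages (7.65 to 9.18 in CDAA, 4.76 to 5.58 in Std), of cholangiocytes (6.70 to 7.54 in CDAA, 3.81 to 4.86 in Std) and of stellate cells and fibroblasts (6.57 to 7.97 in CDAA, 5.67 to 6.09 in Std) were higher in every CDAA pool. Std 3 stood apart by its neutrophil markers, whose mean was 8.88 there and 3.70 to 3.97 in the other Std pools. Each replicate is a pool, so variation from mouse to mouse enters the errors as averages over 3 mice.

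With CDAA, both neuropilins, 4 of 9 plexins and 5 of 20 semaphorins fell, and 2 plexins and 5 semaphorins rose. "Rose" and "fell" stand for a limma Benjamini-Hochberg adjusted p below 0.05 in the fit over all genes. Of 31 members, 7 rose and 11 fell, while in the same fit 7.49% of all genes rose and 9.13% fell. All 5 CDAA pools lay above all 5 Std pools for 7 members and below them for 11, against 6.16% and 7.73% of all genes. The family was picked with this contrast known, so nothing is read from those shares. The median difference was -0.18 over the 31 members and -0.02 over all genes. The mean of all 31 members reached 6.41 ± 0.10 in CDAA pools, against 6.50 ± 0.10 in Std pools (SD, 5 pools each). That mean runs over rises, falls and members not past the threshold, so it hides the changes of single members. Since RNA came from whole isolates, fewer cells of a type and less RNA per cell cannot be told apart in any of these differences.

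**Figure D1:**
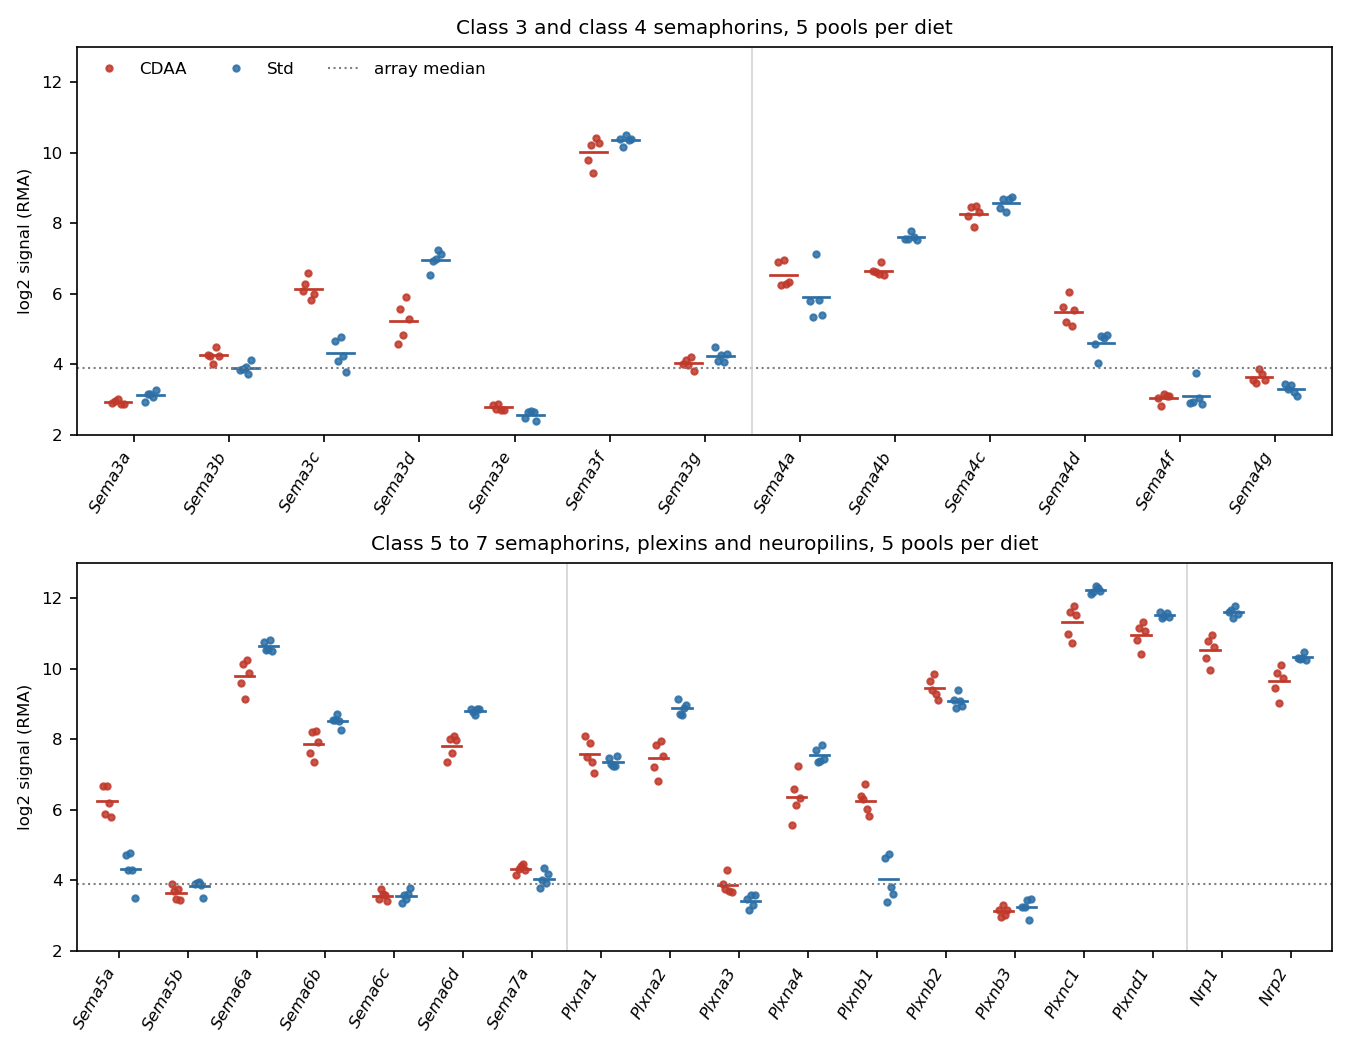
Log2 signal of each of the 31 members in the 5 CDAA pools (red, left) and the 5 Std pools (blue, right), with the group mean as a bar; the dotted line is the array median of 3.89. Nrp1, Plxna2, Sema3d and Sema6d separate downward with CDAA and Plxnb1, Sema3c and Sema5a upward. Sema3a, Sema3e, Sema4f, Plxnb3 and Sema6c lie below the median on every array, as does Sema4g, which rose.

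**Figure D2:**
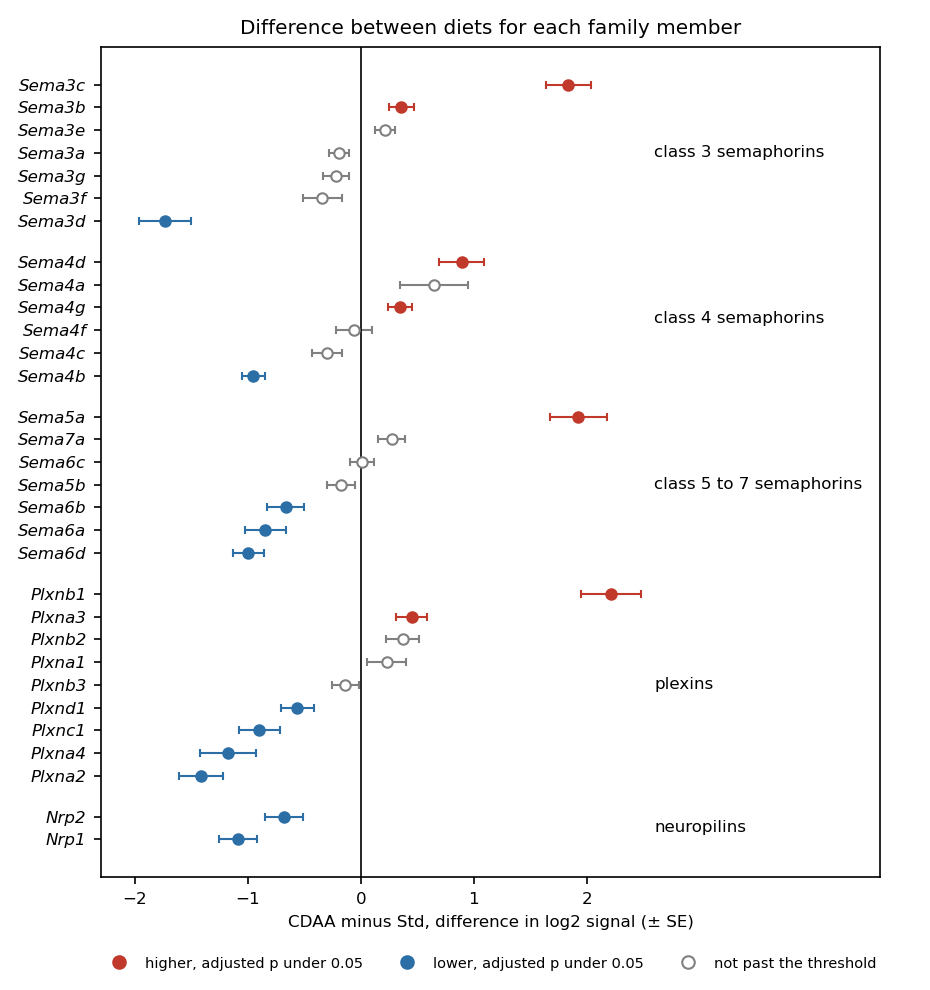
Difference between diets (CDAA minus Std, log2 signal) of each member with its standard error, grouped by class and ordered by size; filled points are past the adjusted threshold, red higher and blue lower in CDAA. Both neuropilins are lower, whereas class 3 semaphorins run between -1.73 and 1.84 and plexins between -1.42 and 2.21.

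Class 3 semaphorins, the secreted ligands, held the opposite pair for which the family was picked: Sema3c rose and Sema3d fell, each by more than 3-fold in signal. Sema3c (probe set 20348_at), which binds both neuropilins and is needed in mice for the outflow tract of the heart, was at 6.07, 6.27, 6.59, 5.81 and 6.00 in CDAA 1 to CDAA 5, against 4.67, 4.10, 4.77, 4.23 and 3.77 in Std 1 to Std 5. The lowest CDAA pool stood 1.04 above the highest Std pool, and the signal was 3.58-fold higher with CDAA (1.84 ± 0.20 on the log2 scale, SE). Std 5 lay below the array median, so the fold in transcript is not fixed by this ratio. Sema3d (108151_at), which binds neuropilin-1 and patterns the pulmonary veins of mice, was at 4.56, 5.56, 4.83, 5.90 and 5.27 in CDAA 1 to CDAA 5, against 6.54, 6.92, 6.98, 7.24 and 7.12 in Std 1 to Std 5. Its groups were 0.64 apart on the log2 scale, CDAA 1 and CDAA 3 were its lowest pools, and its signal fell by 1.73, which is 3.33-fold lower.

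The other class 3 ligands differed far less. Sema3b (20347_at), also a neuropilin ligand, was at 4.26, 4.24, 4.00, 4.49 and 4.24 in CDAA 1 to CDAA 5, against 3.82, 3.88, 3.92, 3.71 and 4.11 in Std 1 to Std 5. It rose by 0.36 ± 0.11, although Std 5 lay above CDAA 3, and the call held in 2 of the 10 fits that left out 1 pool (0.30 to 0.42). Its Std 1, Std 2 and Std 4 values lay below the array median. Sema3f, which favours neuropilin-2, was at 9.42 to 10.41 in CDAA pools and 10.16 to 10.51 in Std pools and did not pass (-0.34 ± 0.17). Sema3g, a ligand known from vascular endothelium, was at 3.81 to 4.21 in CDAA pools and 4.06 to 4.49 in Std pools and did not pass (-0.22 ± 0.11). Sema3a, the classical repellent of axons, which acts through neuropilin-1, and Sema3e, which binds plexin-D1 without a neuropilin, lay below the array median on all arrays. Sema3e (20349_at) was at 2.85, 2.74, 2.88, 2.70 and 2.71 in CDAA 1 to CDAA 5, against 2.46, 2.63, 2.67, 2.65 and 2.39 in Std 1 to Std 5, without overlap between the diets. The differences of -0.20 ± 0.09 for Sema3a and 0.21 ± 0.09 for Sema3e did not pass.

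Sema3c and Sema3d differ in the sequence just upstream of their annotated starts, which is shown because these are the genes the family was picked for. The 250 bases before each start are given from RefSeq (GRCm38.p6, 5′ to 3′ on the strand of the gene), with every CG dinucleotide in capitals. The Sema3c window (chr5:17574566-17574815, + strand) holds 39 CG dinucleotides and 78.4% G or C, and 1.56% of all 32851 RefSeq windows of this length hold at least as many CG. The Sema3d window (chr5:12382916-12383165, + strand) holds 4 CG and 46.8% G or C, and 62.2% of all windows hold at least as many CG.
Sema3c: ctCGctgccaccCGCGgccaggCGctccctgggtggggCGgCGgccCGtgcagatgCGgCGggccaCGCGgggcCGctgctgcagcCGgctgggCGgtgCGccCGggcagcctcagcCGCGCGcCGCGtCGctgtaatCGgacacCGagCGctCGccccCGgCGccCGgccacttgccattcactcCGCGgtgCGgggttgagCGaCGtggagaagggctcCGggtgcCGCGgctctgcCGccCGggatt
Sema3d: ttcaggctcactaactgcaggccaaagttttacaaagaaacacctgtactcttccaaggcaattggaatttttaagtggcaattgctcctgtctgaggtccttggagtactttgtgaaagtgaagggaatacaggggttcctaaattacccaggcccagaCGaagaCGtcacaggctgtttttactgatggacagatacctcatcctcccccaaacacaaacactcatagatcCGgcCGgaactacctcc

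Among all windows the median was 6 CG and 52.4% G or C, and over the 37 windows of the 26 members listed there it was 13 CG and 64.0%. Other members that rose or fell are found on both sides of the median: Plxnb1 and Sema5a, which rose, hold 30 and 17 CG, Sema4d, which rose, at most 2 in its 3 windows, and Nrp2 and Plxnc1, which fell, 32 and 22. Letter matches to known motifs were few. GATAA, the core bound by GATA factors, was searched on both strands and found in 4 of 37 member windows, against 22.6% of all windows, namely in Plxna2, Plxnd1, Sema4d and Sema6d. CACGTG, an E-box, was found in 2 (Sema4b and Sema6d; 6.02% of all windows), TGANTCA, the AP-1 motif, in 3 (Sema4c, Sema4d and Sema6b; 6.75%), and CATTCC, the TEAD motif, in 3 (Plxnb1, Plxnd1 and Sema4a; 12.6%). No motif of the 4 contains another. A match of letters is not a bound site.

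Among class 4 semaphorins, which are membrane proteins, Sema4d and Sema4g rose and Sema4b fell. Sema4d (20354_at), known as CD100 on lymphocytes and as the ligand of plexin-B1 and of CD72, was at 5.62, 5.18, 6.05, 5.08 and 5.54 in CDAA 1 to CDAA 5, against 4.57, 4.04, 4.81, 4.73 and 4.84 in Std 1 to Std 5. Every CDAA pool was above every Std pool, with CDAA 3 highest, and the signal was 1.86-fold higher (0.90 ± 0.20). Sema4b (20352_at), a transmembrane semaphorin, was at 6.64, 6.62, 6.55, 6.90 and 6.53 in CDAA 1 to CDAA 5, against 7.55, 7.54, 7.77, 7.61 and 7.51 in Std 1 to Std 5. It fell by 0.95 ± 0.10, a signal 1.93-fold lower, and its pools were close together within each diet, with an SD of 0.15 in CDAA and 0.10 in Std (n = 5 each). Sema4g (26456_at), a ligand of plexin-B2, was at 3.56, 3.47, 3.87, 3.72 and 3.55 in CDAA 1 to CDAA 5, against 3.44, 3.30, 3.40, 3.20 and 3.10 in Std 1 to Std 5. These values are all below the array median; it rose by 0.35 ± 0.11 and lost its call under 15 of 20 other settings, among them 9 of the 10 that left out 1 pool (0.29 to 0.39).

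Sema4a, Sema4c and Sema4f did not pass. Sema4a, a ligand of immune cells that acts on T cells, was at 6.89, 6.25, 6.96, 6.28 and 6.33 in CDAA 1 to CDAA 5, against 5.78, 5.35, 7.12, 5.82 and 5.40 in Std 1 to Std 5. Std 3, the pool with the high neutrophil markers, lay above all CDAA pools, and without it the difference was 0.96, past the threshold, against 0.65 ± 0.30 with all pools. Sema4c, a ligand of plexin-B2, differed by -0.30 ± 0.13. Sema4f, another membrane semaphorin, differed by -0.06 ± 0.16 with all values below the array median, and there too Std 3 (3.75) was above every other pool.

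In classes 5 to 7, Sema5a rose while Sema6a, Sema6b and Sema6d fell. Sema5a (20356_at), a membrane semaphorin with thrombospondin repeats that binds plexin-B3, was at 6.67, 5.87, 6.68, 6.18 and 5.80 in CDAA 1 to CDAA 5, against 4.71, 4.29, 4.78, 4.29 and 3.50 in Std 1 to Std 5. The groups were 1.02 apart and the signal was 3.8-fold higher with CDAA (1.93 ± 0.25), and 1 Std pool, Std 5, lay below the array median. Sema6d (214968_at), a ligand of plexin-A1, was at 7.35, 7.997, 7.62, 8.09 and 7.97 in CDAA 1 to CDAA 5, against 8.87, 8.76, 8.69, 8.84 and 8.85 in Std 1 to Std 5. Its Std pools agreed within an SD of 0.08, all CDAA pools were lower, and it fell by 1.00 ± 0.14. Sema6a (20358_at), the ligand of plexin-A2 and plexin-A4, was at 9.58, 10.12, 9.14, 10.25 and 9.88 in CDAA 1 to CDAA 5, against 10.77, 10.54, 10.57, 10.81 and 10.51 in Std 1 to Std 5. It fell by 0.84 ± 0.18, least in CDAA 4 and CDAA 2. Sema6b (20359_at), a ligand of plexin-A4, was at 7.60, 8.19, 7.35, 8.22 and 7.91 in CDAA 1 to CDAA 5, against 8.55, 8.54, 8.72, 8.52 and 8.27 in Std 1 to Std 5. Its groups were only 0.04 apart, and when CDAA 1 and CDAA 3 were left out its fall of 0.67 lost its call (-0.41).

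The remaining members of these classes did not pass. Sema7a, which is anchored by a lipid and binds plexin-C1 and integrins, was at 4.14 to 4.45 in CDAA pools and 3.77 to 4.35 in Std pools and differed by 0.27 ± 0.12. Sema5b, a relative of Sema5a, was above the array median in 2 pools and Sema6c, a relative of Sema6a, in none, and they differed by -0.18 ± 0.12 and 0.01 ± 0.11.

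Plexins, the signalling receptors, divided as well: Plxnb1 and Plxna3 rose, and Plxna2, Plxna4, Plxnc1 and Plxnd1 fell. Plxnb1 (235611_at), the receptor of Sema4d, which can pair with the receptor tyrosine kinases Met and Erbb2, separated widely. It was at 6.38, 6.30, 6.74, 6.02 and 5.81 in CDAA 1 to CDAA 5, against 4.63, 3.39, 4.74, 3.81 and 3.61 in Std 1 to Std 5. The groups were 1.07 apart, and the signal was 4.64-fold higher with CDAA (2.21 ± 0.27). Since 3 Std pools lay below the array median, the fold in transcript is not fixed by this ratio. Plxna3 (18846_at), which serves neuropilin-2 with Sema3f, was at 3.88, 3.76, 4.30, 3.71 and 3.68 in CDAA 1 to CDAA 5, against 3.46, 3.16, 3.57, 3.30 and 3.57 in Std 1 to Std 5. It rose by 0.45 ± 0.14, but only CDAA 3 was above the array median, and 9 of 20 other settings ended the call, including the fit that left out CDAA 1 and CDAA 3 (0.30) and 6 of the 10 that left out 1 pool (0.34 to 0.50).

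Plxna2 (18845_at), a receptor of Sema6a, was at 7.22, 7.82, 6.82, 7.95 and 7.53 in CDAA 1 to CDAA 5, against 9.14, 8.72, 8.70, 8.90 and 8.98 in Std 1 to Std 5. Its groups were 0.75 apart and the signal was 2.67-fold lower (-1.42 ± 0.19). The single GATAA match of its upstream window (chr1:194619579-194619828, + strand, RefSeq GRCm38.p6) is in capitals, shown because Plxna2 fell most among the members with such a match.
Plxna2: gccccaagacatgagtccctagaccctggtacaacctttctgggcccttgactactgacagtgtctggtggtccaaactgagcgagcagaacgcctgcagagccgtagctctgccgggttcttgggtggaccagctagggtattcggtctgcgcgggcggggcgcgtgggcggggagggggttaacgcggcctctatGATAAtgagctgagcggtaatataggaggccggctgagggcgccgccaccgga

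Plxna4 (243743_at), which also receives Sema6a and Sema6b, was at 5.56, 6.58, 6.13, 7.24 and 6.33 in CDAA 1 to CDAA 5, against 7.70, 7.36, 7.38, 7.83 and 7.44 in Std 1 to Std 5. It varied most among the CDAA pools of all members that fell (SD 0.62), with CDAA 4 close to the Std range, and fell by 1.17 ± 0.25. Plxnc1 (54712_at), the receptor of Sema7a, was at 11.00, 11.60, 10.73, 11.78 and 11.53 in CDAA 1 to CDAA 5, against 12.12, 12.18, 12.34, 12.28 and 12.21 in Std 1 to Std 5. All CDAA pools were lower and it fell by 0.90 ± 0.18. Plxnd1 (67784_at), the endothelial receptor of Sema3e, which also serves neuropilin-bound class 3 ligands, was at 10.80, 11.16, 10.43, 11.33 and 11.07 in CDAA 1 to CDAA 5, against 11.62, 11.43, 11.49, 11.58 and 11.47 in Std 1 to Std 5. Its groups were 0.11 apart, and the fall of 0.56 ± 0.15 lost its call when CDAA 1 and CDAA 3 were left out (-0.33) or without CDAA 1 (-0.52), Std 1 (-0.54) or Std 4 (-0.54) alone.

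Plxna1, Plxnb2 and Plxnb3 did not pass. Plxna1, the receptor of Sema6d on myeloid cells, was at 7.05 to 8.09 in CDAA pools and 7.23 to 7.51 in Std pools, with CDAA 1 and CDAA 3 above every Std pool, and differed by 0.23 ± 0.17. Without these 2 pools its difference was -0.05. Plxnb2, the receptor of Sema4c and Sema4g, was at 9.12 to 9.84 in CDAA pools and 8.89 to 9.40 in Std pools and differed by 0.37 ± 0.15. Plxnb3, the receptor of Sema5a, was below the array median on all arrays and differed by -0.14 ± 0.12.

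Both neuropilins fell. Nrp1 (18186_at), co-receptor of class 3 semaphorins and of VEGF-A, was at 10.31, 10.79, 9.96, 10.95 and 10.61 in CDAA 1 to CDAA 5, against 11.60, 11.65, 11.44, 11.79 and 11.55 in Std 1 to Std 5. The groups were 0.50 apart, and the signal was 2.12-fold lower (-1.09 ± 0.17). Nrp2 (18187_at), the co-receptor of Sema3f and of the lymphatic factor VEGF-C, was at 9.44, 9.87, 9.03, 10.11 and 9.74 in CDAA 1 to CDAA 5, against 10.30, 10.27, 10.30, 10.47 and 10.25 in Std 1 to Std 5. It fell by 0.68 ± 0.17, with CDAA 4 only 0.14 below the lowest Std pool.

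Set side by side as known ligand and receptor groups, members moved together in some and apart in others. Sema4d and its receptor Plxnb1 both rose, by 0.90 and 2.21. Sema6a fell by 0.84, and its receptors Plxna2 and Plxna4 fell by 1.42 and 1.17. Sema6b, which also binds Plxna4, fell. The neuropilins fell, and of their ligands Sema3d fell, Sema3c and Sema3b rose and Sema3a and Sema3f did not pass. The call of Sema3b was among the weakest. Sema5a rose while Plxnb3 stayed below the array median on all arrays, and Plxnc1 fell while Sema7a did not pass. Sema6d fell while Plxna1 did not pass, Plxnd1 fell while Sema3e did not, and Plxna3 rose while Sema3f did not pass. Sema4g rose, with a weak call, while Sema4c and their receptor Plxnb2 did not pass. No test of these combinations was made.

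**Figure D3:**
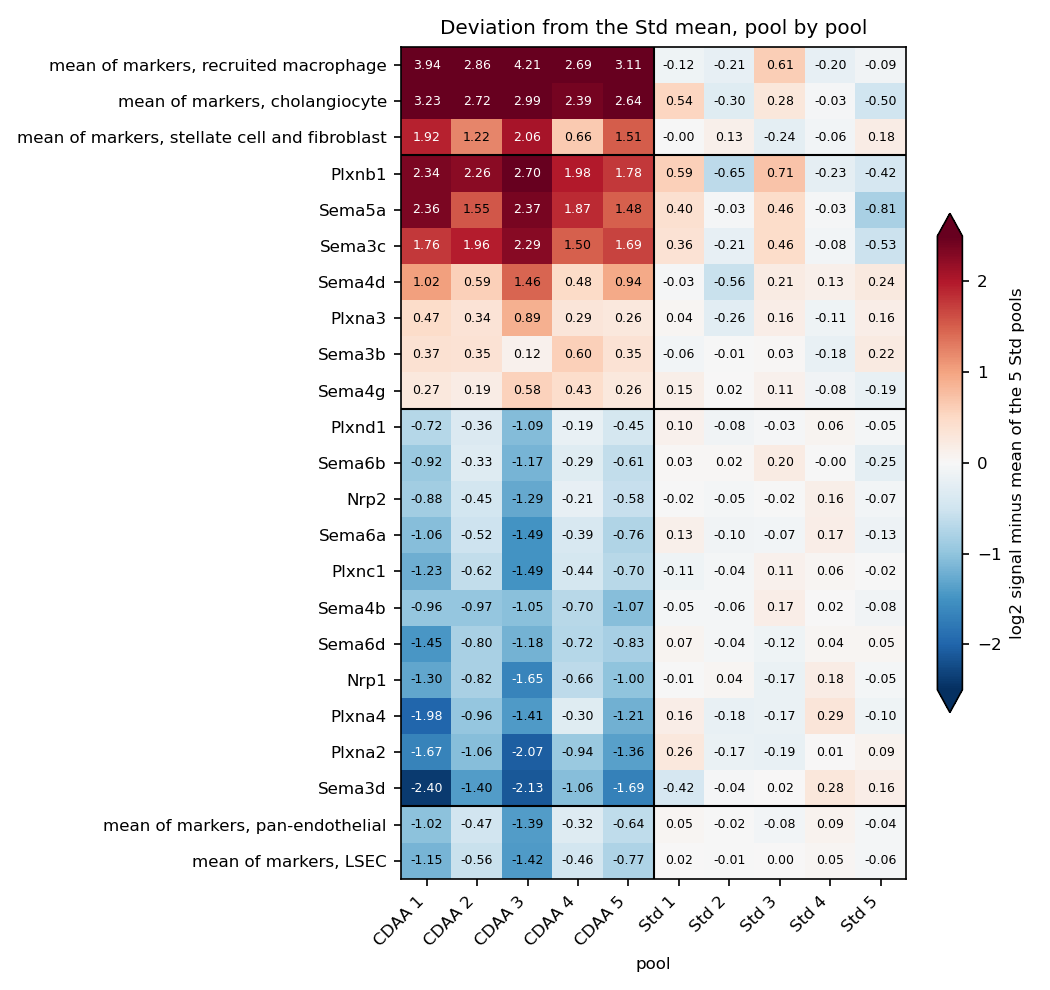
Deviation of each pool (columns) from the mean of the 5 Std pools, in log2 signal, for the 7 members that rose, the 11 that fell and 5 marker means; colours end at 2.5 in each direction. CDAA 3 and CDAA 1 deviate most and CDAA 4 least for most members that fell and for the pan-endothelial mean, while Sema4b lies between -1.07 and -0.70 in all CDAA pools.

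The size of the change differed between CDAA pools in a like way for most members that fell. CDAA 4 was the CDAA pool nearest to Std for 11 of 11, whereas it was the highest CDAA pool for 55.61% of all genes that fell. CDAA 3 was the lowest for 7 and CDAA 1 for 3 of the 11, and for 47.54% and 26.52% of all genes that fell. The median deviation of the 11 from the Std mean was -1.23 in CDAA 1, -0.80 in CDAA 2, -1.41 in CDAA 3, -0.44 in CDAA 4 and -0.83 in CDAA 5. The pan-endothelial marker mean deviated by -1.02, -0.47, -1.39, -0.32 and -0.64 in the same pools, and 9 of its 12 genes fell. The LSEC marker mean, of which 11 of 12 genes fell, deviated by -1.15, -0.56, -1.42, -0.46 and -0.77, closer to the median of the members in each of these pools. Which part the endothelial share of each pool had in these falls was not tested. The spread between pools was larger in CDAA than in Std for all 11 (median SD 0.42 in CDAA and 0.13 in Std), and for 64.79% of all genes. It was larger in CDAA for 4 of the 7 members that rose (median SD 0.30 in CDAA and 0.33 in Std). Over all 31 members this held for 20 (64.52%), near the share of all genes.

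Sema4b was the exception in this pattern. It was -0.96, -0.97, -1.05, -0.70 and -1.07 from the Std mean in CDAA 1 to CDAA 5 and its SD over the CDAA pools was the smallest of the 11. Sema6d and Plxna4 were lowest in CDAA 1 and not in CDAA 3, as was Sema3d, with deviations of -2.40, -1.40, -2.13, -1.06 and -1.69. Sema3d, Nrp1, Plxna2, Plxnc1 and Sema6a lay further below the Std mean than the pan-endothelial marker mean in every CDAA pool, and Nrp2, Plxnd1 and Sema6b in none. Against the LSEC marker mean, Sema3d, Nrp1 and Plxna2 lay further below in every CDAA pool.

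The members that rose were highest in CDAA 3 for 6 of 7, the exception being Sema3b, which was highest in CDAA 4; of all genes that rose, 50.62% were highest in CDAA 3. In CDAA 3 the recruited macrophage and stellate cell marker means were also at their highest, and the cholangiocyte mean was at its second highest. Of these lists 8 of 9 recruited macrophage, 10 of 15 stellate cell and fibroblast and 7 of 7 cholangiocyte markers rose and none fell. The hepatocyte mean (8.09) and the Kupffer cell mean (8.85) were also highest among CDAA pools in CDAA 3. Of 7 hepatocyte markers 2 rose (Ttr by 1.54, Alb by 1.28) and 2 fell (Ass1 -1.18, Cyp2e1 -1.13). Of 10 Kupffer cell markers 5 fell, with Timd4 and Cd163 lower by the most (-3.73 each). The other 5 had positive differences, none past the threshold, although 3 of them had an unadjusted limma p below 0.05. Of 11 markers of capillary or large-vessel endothelium 2 rose (Ednrb by 2.05, Cd34 by 1.37) and 2 fell (Emcn -0.73, Sox17 -0.60), and 7 of the 11 differences were negative. The Std pools, which share the control diet, also differed: Plxnb1 deviated from the Std mean by 0.59, -0.65, 0.71, -0.23 and -0.42 in Std 1 to Std 5, Sema5a by 0.40, -0.03, 0.46, -0.03 and -0.81 and Sema3c by 0.36, -0.21, 0.46, -0.08 and -0.53. The cholangiocyte marker mean deviated by 0.54, -0.30, 0.28, -0.03 and -0.50, the stellate cell mean by 0.00, 0.13, -0.24, -0.06 and 0.18 and the recruited macrophage mean by -0.12, -0.21, 0.61, -0.20 and -0.09. Std 1 and Std 3 were the high Std pools for these 3 genes and for the cholangiocyte markers. They were also the high Std pools for the mesothelial, B cell and capillary or large-vessel endothelium means. For the stellate cell and recruited macrophage means they were not both high. Of the other risen members, Sema4g was also highest in Std 1 and Std 3 (0.15 and 0.11). Sema4d and Sema3b were highest of the Std pools in Std 5, as were the T and NK cell and stellate cell means. Plxna3 was at 0.16 in both Std 3 and Std 5. The part of other cells in the rises was not tested. Mesothelial, B cell, T and NK cell, neutrophil, and Schwann cell and neuron lists held no gene past the threshold by limma, and none at an unadjusted p below 0.05. That does not make these cells equal between the diets. The neutrophil mean was 4.93 to 5.59 in CDAA pools, 8.88 in Std 3 and 3.70 to 3.97 in the other Std pools. The T and NK cell mean was 4.38 to 4.89 in CDAA pools, 5.21 in Std 5 and 3.82 to 4.31 in the other Std pools. The part of Std 3 and Std 5 in the lack of calls was not tested.

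With the pan-endothelial mean of each pool as a covariate in the limma fit, 1 of the 18 called members kept its call, namely Sema4b (-0.80 ± 0.16). None of the 7 rises passed, and 4 members with positive and 5 with negative estimates had an unadjusted p below 0.05. That covariate was itself lower in every CDAA pool than in every Std pool, and among all genes 150 rose and 68 fell with it. Estimates of Sema3c (1.45 ± 0.32), Plxnb1 (1.72 ± 0.43) and Sema5a (1.37 ± 0.39) were still above 1, and that of Sema3d was -0.93 ± 0.27. The other risen members had estimates of 0.58 (Sema3b), 0.24 (Sema4d), 0.20 (Sema4g) and 0.03 (Plxna3). Among the fallen members, those of Nrp2 (0.05), Plxnd1 (0.05), Sema6a (-0.05) and Sema6b (-0.02) were near 0. Estimates of Plxna2 (-0.61), Sema6d (-0.55), Nrp1 (-0.38), Plxna4 (-0.33) and Plxnc1 (-0.15) stayed negative. Without CDAA 1 and CDAA 3, 5 members rose and 9 fell.

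**Figure D4:**
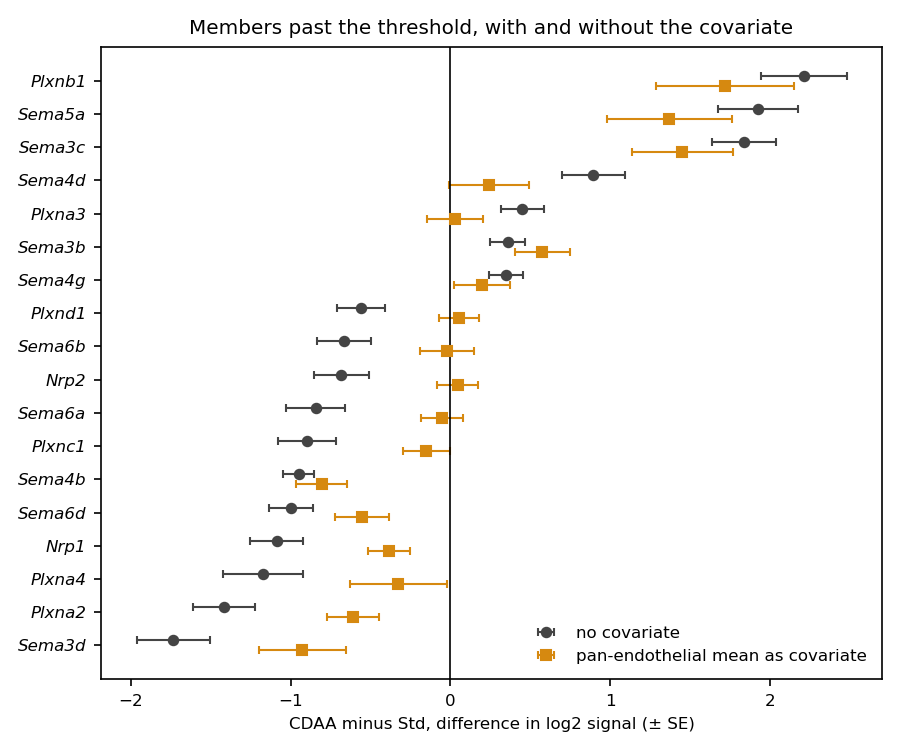
Difference between diets (CDAA minus Std, log2 signal, ± SE) for the 18 members past the threshold, without a covariate (grey circles) and with the pan-endothelial marker mean of each pool as a covariate (orange squares). Sema4b stays at -0.80, the estimates of Plxnd1, Nrp2, Sema6a and Sema6b move close to 0, and those of Plxnb1, Sema5a and Sema3c stay above 1 with wider errors.

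Other genes of the pathway, from 4 lists of 52 genes in all, included 6 that rose and 15 that fell, with a median difference of -0.10. Of all genes in the same fit 7.49% rose and 9.13% fell, with a median difference of -0.02. The lists were not tested as sets, so nothing is read from the counts given here and below. Among 15 surface partners and alternative receptors, 4 rose and 5 fell. Trem2, which with plexin-A1 forms a receptor complex for Sema6d on mouse myeloid cells, rose by 3.70, Cd72, the Sema4d receptor of B cells, by 1.94, and Met, a partner of plexin-B1, by 1.57, whereas Flt1, a VEGF receptor, fell by 1.34. None of the 4 proteases that cut semaphorins passed by limma, and 1 had an unadjusted p below 0.05, namely the sheddase Adam17 (0.27 ± 0.10), which is named for that reason only.

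Of 28 cytoplasmic mediators 9 fell and 1 rose. The small GTPases Mras and Rras, substrates of the plexin GTPase-activating domain, fell by 0.68 and 0.65, the kinase Fyn by 0.66 and Arhgef11, the exchange factor that couples plexin-B proteins to RhoA, by 0.65. The single rise was that of Rnd1, a GTPase that binds plexins, by 0.59; it is named because it is the only one. Among 5 VEGF genes, Vegfa, a ligand of neuropilin-1, rose by 1.36 and Vegfb fell by 0.55. Trem2 and Flt1 are also in the marker lists of recruited macrophages and of endothelium.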

How the data were processed

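RNA of the 10 pools was hybridised as biotin-labelled cRNA to Affymetrix arrays. Per the submitters' processing notes the authors used RMA to make the deposited log2 values (background subtraction, quantile normalization and a summary per probe set); its version, the genome build and scan dates are not given in the sources used here, and no batch term was fitted. Any pair of arrays shared at most 0.244% of its values, and their ranked values lay within 0.00186 of each other. All 10 value columns were matched to samples by accession.

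Of 25428 probe sets, 24705 had 1 symbol in the platform annotation, 723 had none and 0 had several; the brightest probe set of each gene gave 24704 genes. For CDAA against Std, limma (version 3.58.1, under R 4.3.3; lmFit, then eBayes) was run on all genes, two-sided, with a Benjamini-Hochberg threshold of 0.05, after it had been tested on simulated data. Members, gene lists and other settings were chosen with earlier results of these data known. All members are named; of each pathway list up to 4 genes with the largest change past the threshold, and the exceptions stated, are named. Deviations of equally numbered pools correlated at 0.02 to 0.25 across genes, and not every number exceeded 0.1 (3 of 5 did), so the numbers were not taken as pairs. For arrays, their number limits the precision. Promoter windows (26 of 31 members) came from RefSeq, GRCm38.p6.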

Additional observations from a re-analysis of the deposited data

Results flagged for a closer look

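For 5 of 62 sets of 5 pools (31 members, each in 2 diets), 1 pool lay far from the other 4, by a gap to the nearest of more than 0.71 of the whole range (Dixon's limit for 5 values); chance flags about 1 in 20. Nrp2 was at 10.47 in Std 4 and 10.25 to 10.30 in the other Std pools. Sema4a was at 7.12 in Std 3 and 5.35 to 5.82 in the others. Sema4f was at 2.81 in CDAA 2, against 3.05 to 3.14 in the other CDAA pools, and at 3.75 in Std 3, against 2.88 to 3.03 in the other Std pools. Sema5b was at 3.49 in Std 5 and 3.87 to 3.96 in the others. Among the 13 marker lists CDAA 5 had a mesothelial mean of 4.63, and the remaining CDAA pools lay between 4.99 and 5.13. The neutrophil mean was at 8.88 in Std 3 and 3.70 to 3.97 in the other Std pools, and the recruited macrophage mean at 5.58 in Std 3 and 4.76 to 4.88 in the others. The part of these markers in the Std 3 values of Sema4a and Sema4f was not tested.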

How the results depend on the processing

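Counts of members past the threshold moved most under 2 settings. Against a minimum difference of 0.5 (limma treat), 3 members rose and 3 fell, with 357 risen and 95 fallen genes in all. With the pan-endothelial covariate 0 members rose and 1 fell by limma (4 and 5 at an unadjusted p below 0.05), with 150 and 68 genes in all. Without CDAA 1 and CDAA 3, a setting with fewer arrays, 5 members rose and 9 fell, and 1305 genes rose and 1307 fell. With 1 pool left out at a time, 4 to 6 members rose and 10 to 11 fell, among 1402 to 1989 risen and 1554 to 2583 fallen genes. The weakest calls were those of Sema4g, Sema3b, Plxna3 and Plxnd1, which passed in 1, 2, 4 and 7 of these 10 fits.

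Signs turned with the covariate for Nrp2 (0.0465), Plxnd1 (0.0545), Plxna1 (-0.28), Plxnb2 (-0.0628), Sema3f (0.33) and Sema4c (0.13), and without CDAA 1 and CDAA 3 for Plxna1 (-0.0451); the cause was not tested. With 1 pool left out, Sema4f ran between -0.12 and 0.10 and Sema6c between -0.0430 and 0.0657. With the replicate number as a block, 7 members rose and 11 fell (1893 and 2285 genes in all): 16 of 18 calls were kept, Sema3b and Sema4g were lost and Plxnb2 and Sema4a passed. Equal numbers are not known to mark a shared day or litter, and 3 of 5 numbers correlated best with their own. The mean signal over all pools lay below the array median for 8 members, which limits what can be said of them. Single pools below it limit others too. Plxnb1 and Sema3b were above it in 7 of 10 pools, and Sema3c, Sema3g, Sema5a and Sema7a in 9.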

Other observations

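On chromosome 5 Sema3d and Sema3a are direct neighbours among protein-coding genes in RefSeq, 3 such genes separate Sema3a from Sema3e, and 15 separate Sema3e from Sema3c. Sema3a and Sema3e, which lie between Sema3d and Sema3c, had differences of -0.20 and 0.21, neither past the threshold; both were below the array median on all arrays, where a difference in transcript could not be seen well. Of the nearest measured neighbours outside the family, Cd36, a fatty acid receptor that lies next to Sema3c, averaged 12.06 in CDAA and 11.65 in Std and rose by 0.41 ± 0.11 (SE, n = 5 each). Pclo, next to Sema3e, differed by -0.05 and did not pass. Neither did 4933402N22Rik, Speer3, Gm6650 and Speer4f1, the remaining nearest measured neighbours. These and Pclo averaged below the array median in both diets, where a difference in transcript could not be seen well. These neighbours were looked up after the values of the members were known.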
